A study of Homo sapiens with 14 samples.

Results

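The regions described here are the R-loop peaks called on human sequence that the GRCh38 assembly could not put in order on a chromosome. They were the peaks whose chromosome field named none of chromosomes 1 to 22, X, Y or the mitochondrial genome, and there were 1766 of them among 1320428 peaks of 8 lists. All lay on 2 kinds of contig. Unlocalized contigs, assigned to a chromosome but without a position, held 832 peaks on 32 of 42 contigs, and unplaced contigs, assigned to no chromosome, held 934 peaks on 38 of 127. No list held a peak on an alternate haplotype, a patch, a decoy or the mitochondrial genome. The rule that picks a peak uses its position and no measured value, although the set was proposed with earlier results of these data known.

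DNA-RNA immunoprecipitation sequencing (DRIP-seq) mapped R-loops in an isogenic pair of Nalm-6, an established leukemic B cell line, that carried SF3B1 K700K (WT) or SF3B1 K700E (MT). For each genotype there were 2 libraries from untreated DNA (UNT) and 2 from DNA digested overnight with RNase H (RNH1), which degrades the RNA strand of a DNA:RNA hybrid. Both portions of a DNA preparation were then precipitated with S9.6, an antibody against such hybrids, so that the untreated and RNH1-treated library of 1 genotype and replicate number form a pair. Whether the replicates came from separate cultures is not stated, p-values therefore measure only the spread between libraries, and with 1 line per genotype the mutation and other differences between the lines cannot be told apart.

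An R-loop forms when a transcript pairs with its template strand and leaves the other DNA strand single. Tandem repeats make up much of the pericentromeric and short-arm sequence that resisted assembly, among them the classical satellites built of diverged copies of GGAAT, alpha satellite of the centromeres, beta satellite, and the ribosomal DNA (rDNA) array, which encodes the 45S precursor of 18S, 5.8S and 28S ribosomal RNA and carries a long intergenic spacer. SF3B1 is a core protein of the U2 small nuclear ribonucleoprotein, which recognises the branch point of introns. A short assembled copy of a repeat can gather the reads of other copies in the cell, and an aligner places a read that fits several places at 1 of them. A peak on such a contig can therefore report a family of copies rather than 1 locus. In each list, 14.0% to 23.8% of contig peaks had at least 50% of their 50-base words elsewhere in the genome.

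The sequence under peaks was sorted by script into windows of up to 1000 bases by its repeat content. The following stretches of GRCh38, plus strand, each under a peak of the class named, are printed because the results differ between these classes.
The first is pentamer satellite from KI270442.1, the contig with the most peaks, where capitals mark GGAAT or its reverse complement ATTCC, which made up 60 of the 150 bases.
KI270442.1:56178-56327: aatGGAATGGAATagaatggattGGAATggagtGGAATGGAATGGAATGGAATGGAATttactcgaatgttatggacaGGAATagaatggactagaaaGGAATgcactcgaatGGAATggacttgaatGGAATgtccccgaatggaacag
In the next 4, capitals mark each base that equals the base 1 repeat unit earlier, for alpha satellite, a repeat of 48 bases, a beta satellite-like repeat of 69 bases and an AT-rich repeat of 42 bases.
KI270587.1:1837-2076: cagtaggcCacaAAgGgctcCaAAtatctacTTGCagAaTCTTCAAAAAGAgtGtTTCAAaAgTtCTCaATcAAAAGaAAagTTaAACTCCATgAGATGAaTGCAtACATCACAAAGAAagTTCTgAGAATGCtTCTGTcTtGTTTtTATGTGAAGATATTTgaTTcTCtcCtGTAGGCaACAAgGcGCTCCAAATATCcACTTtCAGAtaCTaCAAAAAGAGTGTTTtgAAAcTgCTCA
GL000205.2:33872-34021: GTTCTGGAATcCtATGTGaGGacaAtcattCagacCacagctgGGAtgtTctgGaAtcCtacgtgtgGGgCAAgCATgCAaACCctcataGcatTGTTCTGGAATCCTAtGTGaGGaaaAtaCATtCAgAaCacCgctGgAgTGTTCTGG
GL000225.1:67467-67616: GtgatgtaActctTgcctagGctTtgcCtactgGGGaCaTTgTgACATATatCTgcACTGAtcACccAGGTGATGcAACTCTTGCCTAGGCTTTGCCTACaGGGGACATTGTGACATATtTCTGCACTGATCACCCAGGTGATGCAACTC
KI270467.1:2272-2421: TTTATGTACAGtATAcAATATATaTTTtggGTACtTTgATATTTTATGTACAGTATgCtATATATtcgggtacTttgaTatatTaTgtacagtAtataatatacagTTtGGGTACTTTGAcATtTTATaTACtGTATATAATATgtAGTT
The last, without capitals, lies outside these repeat classes under a peak of all 4 MT lists and no WT list.
KI270448.1:6942-7091: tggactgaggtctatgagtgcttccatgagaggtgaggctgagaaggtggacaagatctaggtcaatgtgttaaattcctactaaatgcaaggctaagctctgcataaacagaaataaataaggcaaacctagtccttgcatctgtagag

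Contig peaks were more numerous in MT than in WT and slightly more numerous after RNH1 than before it. The untreated lists held 121 and 134 contig peaks in WT and 260 and 275 in MT, and the RNH1-treated lists held 139 and 175 in WT and 344 and 318 in MT. The groups of the 2 genotypes did not overlap in either treatment. MT UNT libraries had 267.5 ± 10.6 contig peaks and WT UNT libraries 127.5 ± 9.19 (SD, n = 2 each), 2.10-fold more on a log2 difference of 1.07, with p = 0.333 in a two-sided exact permutation test, the smallest p that 2 against 2 libraries allow. No test over these libraries could fall under 0.05, and a p above it does not show that the values did not differ. After RNH1 the values were 331 ± 18.4 in MT and 157 ± 25.5 in WT (SD, n = 2 each), 2.12-fold more (exact permutation p = 0.333).

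The lists differed as widely in overall size, from 35091 peaks in WT RNH1 replicate 1 to 296808 in MT UNT replicate 2, and this moved with the genotype difference. Relative to all peaks of its list, the contig share was 0.0977% and 0.102% in WT UNT and 0.102% and 0.0927% in MT UNT, a log2 difference of -0.04 (exact permutation p = 1). After RNH1, WT had shares of 0.396% and 0.225% and MT had 0.170% and 0.160%, a log2 difference of -0.86 (exact permutation p = 0.333). When only the 35091 peaks of lowest p-value were kept in each list, the genotype difference in contig peak counts turned to -0.02 in untreated and -0.27 in RNH1-treated libraries. The higher number in MT was thus seen in the absolute counts and not in the shares. The estimated background of the libraries, a measure of sequencing depth recovered from the lists, was 2.99 and 3.13 reads in WT UNT, 3.51 and 4.35 in MT UNT, 1.62 and 2.17 in WT RNH1 and 2.76 and 2.55 in MT RNH1. The part of depth in the counts was not tested.

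**Figure D1:**
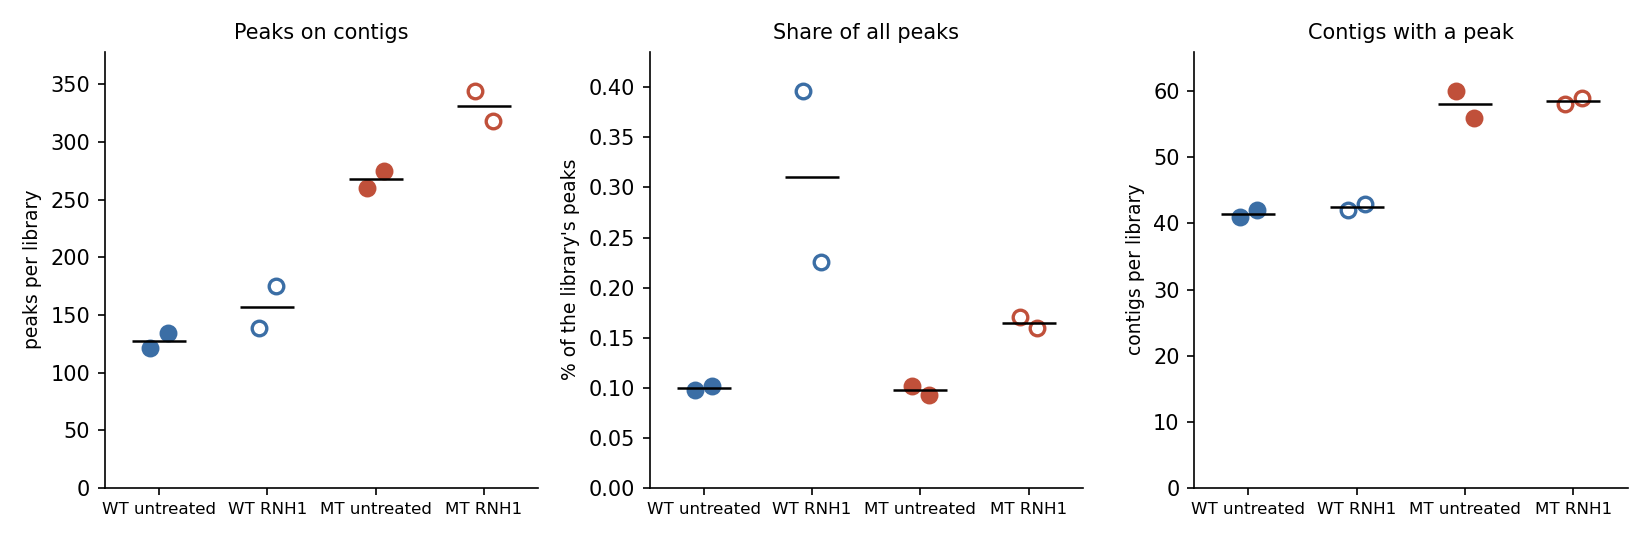
Peaks on unplaced and unlocalized contigs in each library (points, 2 per group), as a count and as a percentage of all peaks of the list, by genotype and treatment. Counts separate WT from MT, from 121 to 175 against 260 to 344, while the shares of the untreated libraries all lie between 0.0927% and 0.102%.

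Each list was smaller after RNH1 than before it, but contig peaks were more numerous. Each RNH1-treated library held more contig peaks than its untreated partner, by 1.23-fold on average, and the log2 ratio of untreated to RNH1-treated counts was -0.20, -0.39, -0.40 and -0.21 in the 4 pairs (mean -0.30 ± 0.11 SD, two-sided exact permutation p = 0.13, the smallest p that 4 pairs allow). As a share of the list the difference was 2.25-fold, with log2 ratios of -2.02, -1.14, -0.74 and -0.79 (mean -1.17 ± 0.59 SD, exact permutation p = 0.13). The largest of these belongs to the pair with the 35091-peak list, and without that pair the mean was -0.89. Coverage told the same order: contig peaks covered 0.875% and 1.06% of contig bases in WT UNT, 1.2% and 1.504% in WT RNH1, 1.74% and 1.76% in MT UNT, and 2.51% and 2.28% in MT RNH1. On chromosomes coverage was instead lower after RNH1 in every pair, going from 2.24% and 2.42% to 0.561% and 1.399% in WT and from 4.64% and 5.48% to 3.78% and 3.64% in MT.

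A peak of an untreated library was counted as bona fide where its RNH1-treated partner held no peak over any of its bases. On contigs 48 of 121 and 38 of 134 peaks were bona fide in WT, and 78 of 260 and 76 of 275 in MT. These are shares of 39.7%, 28.4%, 30% and 27.6%, with 95% Wilson intervals of 31.4 to 48.6%, 21.4 to 36.5%, 24.8 to 35.8% and 22.7 to 33.2%, which cover counting error only. In the same libraries 81.9%, 65.8%, 49.1% and 51.2% of chromosome peaks were bona fide. The contig share was lower in each of the 4 libraries, by 30.6 percentage points on average (-42.3, -37.4, -19.1 and -23.5, SD 11.04, two-sided exact permutation p = 0.13). Between genotypes the contig share differed by -5.20 points in MT, less than the spread within WT, and without WT UNT replicate 1 by 0.46 points (exact permutation p = 0.667 with all libraries).

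The contig peaks differed by sequence class. Pentamer satellite held 851 of the 1766 peaks, 48.2%, on 22 contigs, while it made up 9.06% of contig sequence. On chromosomes the same class was 0.0985% of sequence and 0.175% of peaks. Sequence outside all repeat classes held 678 contig peaks, 38.4%, on 70.03% of contig sequence. The remaining peaks were 72 in alpha satellite, 53 in rDNA, 43 in beta satellite-like repeats, 43 in repeats of short units, 22 in the 48-base repeat and 4 in the 42-base repeat. Repeats of short units had 0 and 2 peaks in WT UNT and 12 and 15 in WT RNH1. In MT they had 3 and 1 in UNT and 5 and 5 in RNH1, so WT exceeded MT after RNH1. On chromosomes this class also had more peaks after RNH1 in every pair. In the windows around pentamer peaks a median of 32% of bases lay in GGAAT or ATTCC, against 1% in contig windows of other classes. This content defines the class, so the contrast describes the class and is not a result.

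In pentamer satellite the peaks numbered 54 and 64 in WT UNT, 78 and 93 in WT RNH1, 100 and 113 in MT UNT, and 182 and 167 in MT RNH1. The 4 groups did not overlap and stood in that order, lowest first. Per Mb of this sequence the densities were 54.3, 64.4, 78.5, 93.5, 101, 114, 183 and 168 in that order of libraries, and on the chromosomes' own pentamer satellite 48.4, 49.8, 60.5, 78.1, 103, 116, 177 and 166. Contig and chromosome copies of this class thus had like densities. Peaks per Mb in contig pentamer satellite were 10.7-fold those in contig sequence outside the repeat classes (log2 3.42 ± 0.45 SD, higher in all 4 preparations, two-sided exact permutation p = 0.13). That contig sequence had 6.12 and 5.73 peaks per Mb in WT UNT and 15.7 and 17.7 in MT UNT. On chromosomes the same class had 43.3 and 45.9 in WT UNT and 89.1 and 104 in MT UNT, near the pentamer densities there. After RNH1 it had 11.9 and 26.6 in WT and 70.2 and 69.3 in MT on chromosomes, below the pentamer densities there. Each RNH1-treated library had more pentamer peaks than its partner, 1.54-fold on average (log2 of untreated to RNH1-treated -0.62 ± 0.16 SD, exact permutation p = 0.13). Bona fide peaks were few: 5 of 54, 6 of 64, 10 of 100 and 14 of 113, or 9.26%, 9.38%, 10% and 12.4%, and 20%, 14.6%, 11.7% and 15.7% on chromosomal pentamer satellite.

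Outside the repeat classes the counts were 47 and 44 in WT UNT, 24 and 47 in WT RNH1, 121 and 136 in MT UNT, and 136 and 123 in MT RNH1. MT lay above WT in every library, by 2.82-fold in untreated and 3.85-fold in RNH1-treated DNA (exact permutation p = 0.333 each, log2 differences of 1.496 and 1.95). With the same number of peaks in every list these differences were 0.26 and 0.45. On chromosomes the same class also had more peaks in MT, with 123106 and 130363 in WT UNT, 253017 and 295227 in MT UNT, 33903 and 75685 in WT RNH1, and 199478 and 196807 in MT RNH1. RNH1 had no shared direction here, with log2 ratios of 0.97, -0.10, -0.17 and 0.14 (mean 0.21 ± 0.52 SD, exact permutation p = 0.75), and without WT replicate 1 the mean was -0.04. The difference between pentamer satellite and this class in the log2 ratio of untreated to RNH1-treated peaks was -0.84 ± 0.46 (SD) and negative in all 4 pairs (exact permutation p = 0.13). Bona fide peaks were 33 of 47, 21 of 44, 43 of 121 and 53 of 136, or 70.2%, 47.7%, 35.5% and 39.0%, each below the 82.1%, 66.0%, 49.1% and 51.2% of chromosome peaks of this class. Repeated sequence differed between these classes too: a median of 40.7% of the 50-base words of peaks outside the repeat classes, and 3.04% in pentamer satellite, occurred elsewhere in the genome.

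Alpha satellite, the sequence of functional centromeres, held 14.1% of contig sequence and 4.08% of contig peaks. Its counts were 9 and 10 in WT UNT, 18 and 11 in MT UNT, 5 and 1 in WT RNH1, and 7 and 11 in MT RNH1. In 3 of the 4 pairs the RNH1-treated library had fewer, and in MT replicate 2 both had 11. The bona fide peaks were 7 of 9, 8 of 10, 15 of 18 and 4 of 11, with 95% Wilson intervals from 15.2% at the lowest to 94.3% at the highest, so that these counts place the share only roughly. On chromosomal alpha satellite densities were 1.11 and 0.982 peaks per Mb in WT UNT and 4.55 and 5.13 in MT UNT, against 5.8, 6.45, 11.6 and 7.09 on the contigs. Alpha satellite made up 35.6% of KI270442.1 and 24.2% of KI270438.1.

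**Figure D2:**
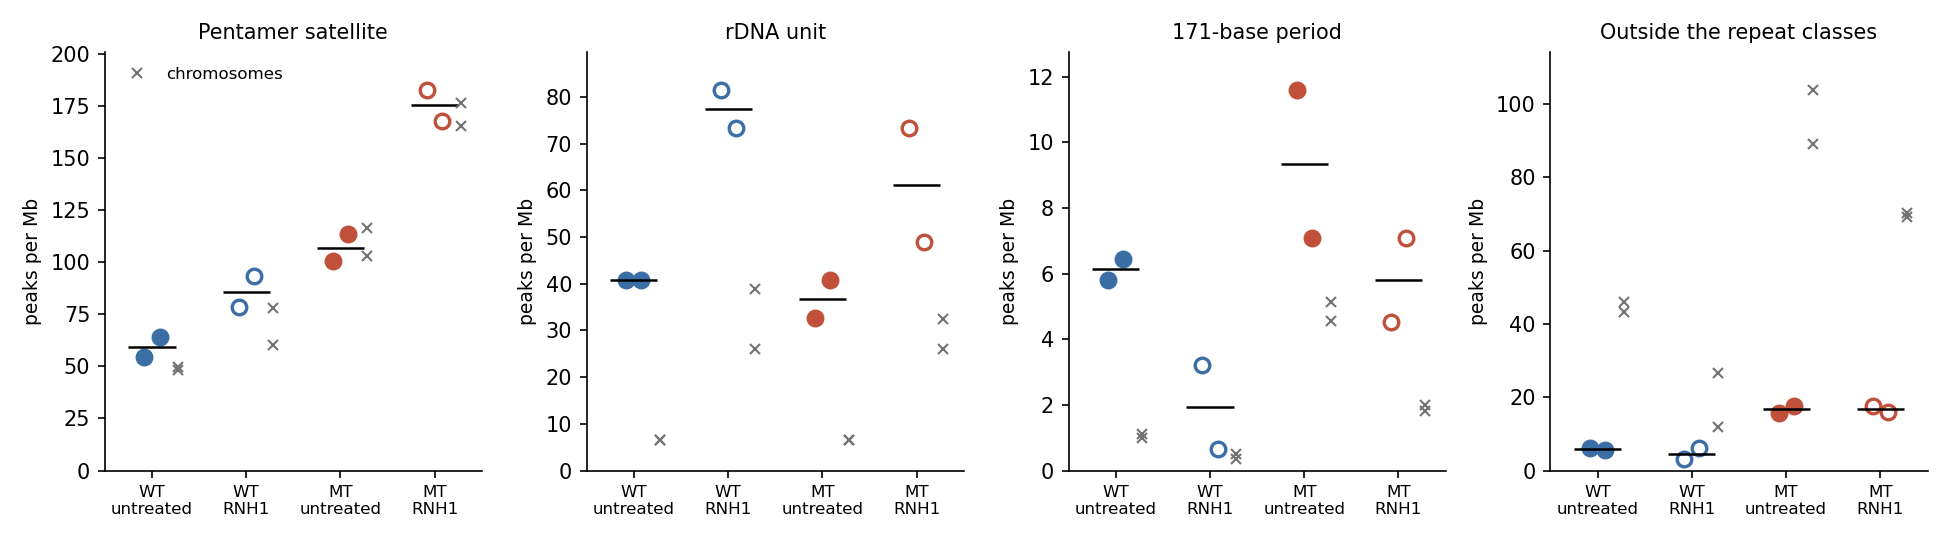
Peaks per Mb of sequence in each repeat class on contigs (points, 2 libraries per group) with the same class on chromosomes beside them (crosses). In pentamer satellite the points range from 54.3 and 64.4 in WT UNT to 183 and 168 in MT RNH1 and the crosses lie near them, whereas outside the repeat classes the points lie far below the crosses.

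**Figure D3:**
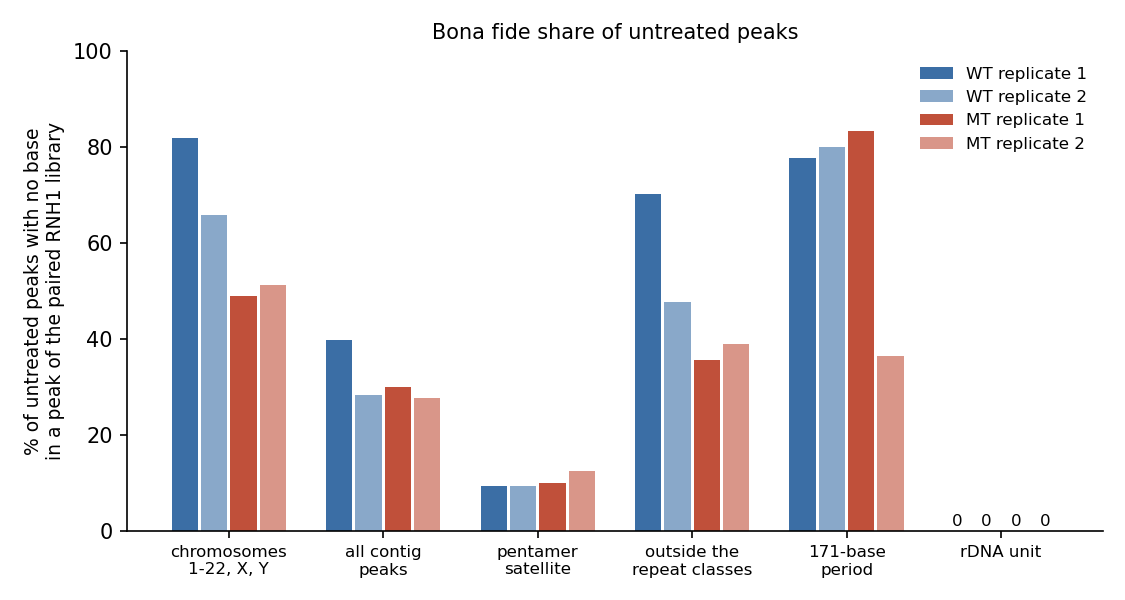
Share of untreated peaks in each of the 4 untreated libraries over which the RNH1-treated partner held no peak (bars), for contigs, chromosomes and repeat classes. Pentamer satellite stands between 9.26% and 12.4% on contigs, below all chromosome peaks at 49.1% to 81.9%.

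The local background of a peak is the read level around it that the peak caller used as reference, given here relative to the background of the whole genome. At contig peaks its median was 1.24 and 1.28 in WT UNT, 2.51 and 2.04 in WT RNH1, 1.203 and 1.27 in MT UNT, and 2.67 and 2.21 in MT RNH1. All 4 RNH1-treated values lie above all 4 untreated ones, 1.88-fold on average (log2 -0.91 ± 0.21 SD, exact permutation p = 0.13), and after subtracting the same change on chromosomes the difference was 1.78-fold (log2 -0.83 ± 0.19 SD, exact permutation p = 0.13). In pentamer satellite the medians reached 4.56 and 5.09 in WT RNH1 and 6.79 and 5.35 in MT RNH1, from 2.04, 2.22, 2.25 and 2.03 in untreated libraries, whereas outside the repeat classes all 8 stayed between 1.00 and 1.18. Medians on chromosomal pentamer satellite rose too, from 2.28 and 2.41 in WT UNT to 3.94 and 3.84 after RNH1. In MT they rose from 1.77 and 1.72 to 4.96 and 4.27, so the rise was not particular to contigs. Fold enrichment, the summit over this local background, had contig medians of 4.21 to 5.26, and differed from chromosomes by a log2 of -0.02 ± 0.09 (SD, exact permutation p = 0.75), positive in both WT and negative in both MT preparations. Since a fold enrichment divides by this background, the level of a peak is given below both as fold enrichment and as summit height over the genome background.

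Merging peaks of the 8 lists that shared at least 1 base gave 480862 regions, 541 of them on contigs. Of the contig regions 53, on 27 contigs, had a peak in all 8 lists, 9.80% against 2.21% over all regions, and 175 were in 1 list only, 32.3% against 33.0% of chromosome regions. The 53 were 35 regions of pentamer satellite, 12 outside the repeat classes, 4 of rDNA and 2 of beta satellite-like repeat. Within pentamer satellite the share was 16.4% of 213 regions on contigs and 13.5% of 644 on chromosomes.

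Between genotypes, 109 of 356 contig regions of untreated DNA had a peak in both MT lists and neither WT list, 30.6% against 32.3% over all regions, and 14 had the reverse, 3.93% against 8.19%. Of the 109, 69 lay outside the repeat classes, 38.3% of 180 such contig regions against 32.3% on chromosomes. Another 27 lay in pentamer satellite, 21.6% of 125 against 25.4% on chromosomes. Leaving out a library loosens these rules, since 1 list then stands for both of its group, so a share can only stay or rise. The share over all regions was not recomputed under the loosened rules. Leaving out MT UNT replicate 1 gave an MT-only share of 54.5% in place of 30.6%, and the 14 became 31 without WT UNT replicate 1 and 25 without WT UNT replicate 2. With RNH1, 124 of 431 regions were in both MT lists only, 28.8% against 38.2%, and 7 in both WT lists only, 1.62% against 2.78%. The 124 became 187 without MT RNH1 replicate 2, and the 7 became 39 without WT RNH1 replicate 1, 21 without WT RNH1 replicate 2 and 12 without MT RNH1 replicate 1. With the same number of peaks in every list, 15 regions were MT-only and 11 WT-only in untreated DNA, and 17 and 16 in RNH1-treated DNA. The share over all regions was not recomputed for these either. With all peaks and over all classes together, the contig shares were thus near or under the background in both directions. Outside the repeat classes the untreated MT-only share lay above that of chromosomes.

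Between treatments, 5 contig regions had a peak in all 4 RNH1-treated lists and no untreated list, 0.924% against 0.177%, of which 4 were pentamer satellite and 1 rDNA. Only 2 had the reverse, 0.370% against 1.47%. These were GL000218.1:55458-55745 and KI270710.1:37060-37906. The latter had fold enrichments of 8.27 and 7.27 in WT UNT and 3.54 and 3.18 in MT UNT, and no RNH1-treated list held a peak there.

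In the 53 regions of all 8 lists the median summit height was 13.4 and 15.97 times the genome background in WT UNT, 38.3 and 45.6 in WT RNH1, 17.9 and 16.1 in MT UNT, and 50.7 and 45.9 in MT RNH1. Height was above the untreated partner in all 4 pairs in 48 regions, 90.6% against 50.6% of all such regions, and below in 1, 1.89% against 6.98%. In pentamer satellite this held for all 35 contig regions and for 86 of 87 chromosomal ones. By fold enrichment 24 regions were higher after RNH1 in all 4 pairs, 45.3% against 37.1%, and 4 lower, 7.55% against 8.26%. In untreated DNA height was above WT in both MT libraries in 24 regions, 45.3% against 37.1%, and below in 9, 17% against 39.8%, while fold enrichment was above in 18, 34.0% against 41.1%, and below in 16, 30.2% against 30.1%.

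**Figure D4:**
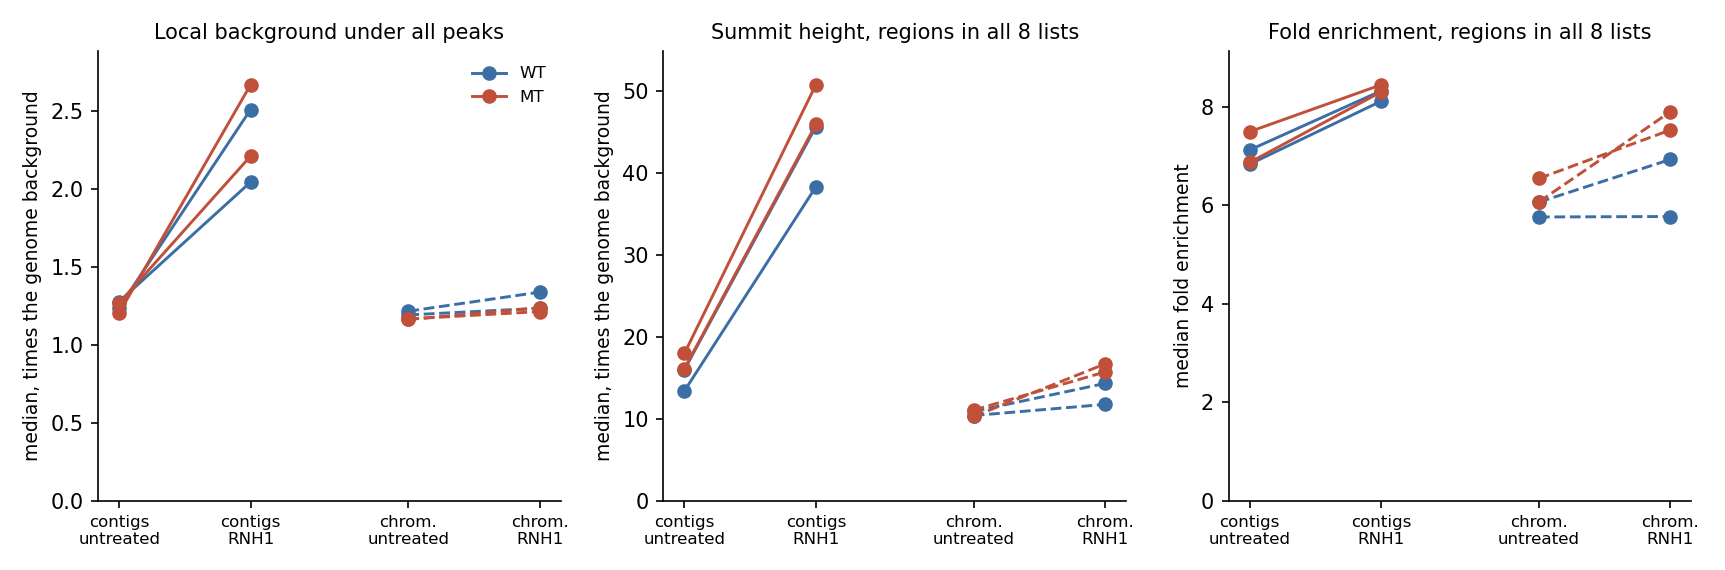
Median level of the regions found in all 8 lists, 53 on contigs and 10557 on chromosomes, as fold enrichment over local background and as summit height over genome background, with a line from each untreated library to its RNH1-treated partner. The contig heights lie between 13.4 and 17.9 in untreated and between 38.3 and 50.7 in RNH1-treated libraries, and the chromosome heights between 10.3 and 11.03 and between 11.7 and 16.7.

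The 12 contigs with the most peaks held 1071 peaks, 60.6% of the total, on 19.4% of contig sequence. KI270442.1, an unplaced contig of 392061 bases, carried 15 and 18 peaks in WT UNT, 18 and 23 in WT RNH1, 24 and 31 in MT UNT, and 45 and 40 in MT RNH1. Its region at 56011-57140, from which the pentamer sequence above was taken, had fold enrichments of 12.5 and 11.7 in WT UNT, 13.8 and 12.1 in WT RNH1, 13.8 and 14.7 in MT UNT, and 14.8 and 14.9 in MT RNH1. Its height over the genome background was 19.4 and 22.05 in WT UNT and 48.8 and 55.8 after RNH1, and 30.8 and 33.3 in MT UNT and 133 and 107 after RNH1. The height thus separated the treatments in both genotypes, while fold enrichment was only slightly higher in each pair.

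KI270729.1, from chromosome 17 and 77.4% pentamer satellite, had 5 and 8 peaks in WT UNT, 25 and 25 in MT UNT, 9 and 13 in WT RNH1 and 32 and 30 in MT RNH1. GL000216.2, which was 49.8% pentamer and 17.9% beta satellite-like, had 10 and 12 in WT UNT, 12 and 17 after RNH1, 15 and 17 in MT UNT and 28 and 23 after RNH1, and it held the longest contig region, 8084 bases. KI270736.1 from chromosome 22 went from 8 and 11 peaks in MT UNT to 31 and 24 after RNH1, and from 6 and 8 to 9 and 10 in WT. On KI270438.1, KI270730.1 and KI270737.1, also mostly pentamer satellite, RNH1-treated lists held 1.34-, 1.86- and 2.07-fold the untreated peaks. KI270738.1, which was 59.2% pentamer satellite, did not share this, with 23 untreated and 22 RNH1-treated peaks and more after RNH1 in 1 of 4 pairs. KI270730.1 was also 1 of the contigs with fewer peaks in MT UNT, 4 and 5, than in WT UNT, 7 and 6.

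Of the contigs with at least 10 peaks over the RNH1-treated lists, 20 of 25 had as many or more there than in the untreated list in at least 3 of 4 pairs, and 10 had more in all 4. This filter counts RNH1-treated peaks and so favors contigs that are high in those lists. The counts therefore give no support of their own, and no like count was made for chromosomes. Of the contigs with at least 10 peaks over the untreated lists, MT exceeded WT in every library on 18 of 23 and fell short of it on 2. MT lists held more of these untreated peaks than WT lists, so this filter favors contigs that are high in MT. These counts likewise give no support of their own, and no like count was made for chromosomes. Untreated lists also held more chromosome peaks in MT, 254170 and 296533 against 123720 and 131096 in WT. The contig share of all untreated peaks differed between genotypes by a log2 of -0.04. Neither these counts nor the ratios that follow are corrected for list size. Among the contigs with at least 10 untreated peaks, differences of at least 3-fold were found on KI270729.1 (3.85-fold), GL000205.2 (3.5-fold), KI270738.1 (6.67-fold), KI270737.1 (3.67-fold) and KI270751.1 (4-fold). KI270738.1 rested on 1 and 2 peaks in WT against 9 and 11 in MT, and KI270751.1 on 2 and 2 against 9 and 7. GL000205.2, from chromosome 17, had 4 and 4 WT UNT peaks and 13 and 15 MT UNT peaks, and only 7 and 8 in MT RNH1. This contig, GL000219.1 and GL000224.1 had fewer peaks after RNH1 over all libraries, with RNH1-treated to untreated ratios of 0.694, 0.837 and 0.720, and each carried the 48-base repeat, on 20.5%, 11.2% and 38.2% of its length. Contig peaks classed as this repeat itself numbered 2 and 1 in WT UNT and 0 and 1 in WT RNH1. In MT they numbered 8 and 7 in UNT and 1 and 2 in RNH1. Counting all peaks of a contig, other contigs with this repeat did not share the direction to fewer. KI270741.1 had 1 peak in every list, in a region classed outside the repeat classes. KI270708.1 had 0 and 0 in WT UNT, 0 and 0 in WT RNH1, 1 and 2 in MT UNT and 5 and 3 in MT RNH1. Chromosome peaks in this repeat were more numerous after RNH1 in every pair, with 9 and 13 in WT UNT, 14 and 33 in WT RNH1, 17 and 23 in MT UNT, and 32 and 27 in MT RNH1.

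**Figure D5:**
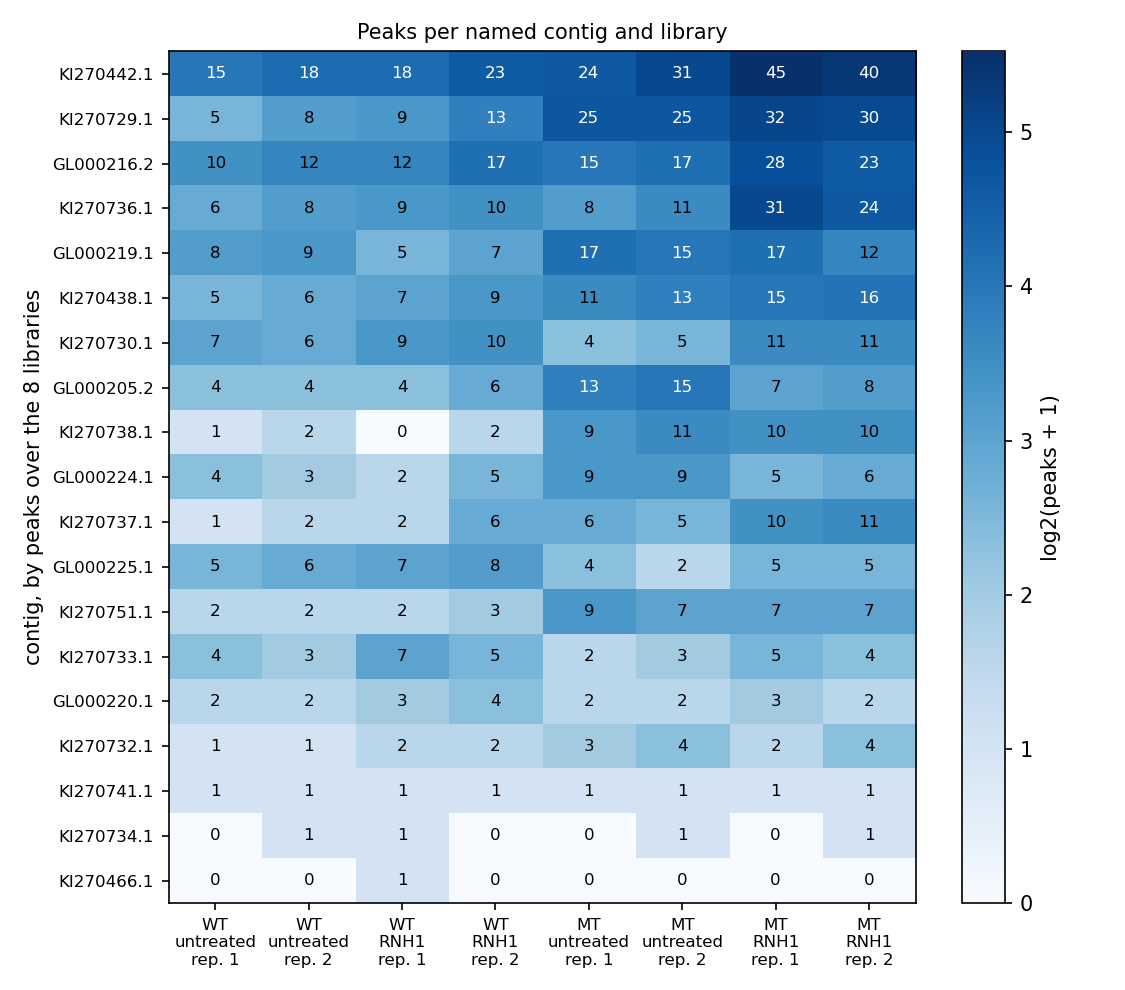
Peaks per library on the named contigs, ordered by their total over the 8 libraries, with color giving log2(peaks + 1) and the count printed in each cell. KI270442.1 is highest in MT RNH1 with 45 and 40, as is KI270736.1 with 31 and 24, while GL000205.2 is highest in MT UNT with 13 and 15.

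Single regions differed between genotypes in both directions. On GL000219.1 the region 117879-118341, outside the repeat classes, had fold enrichments of 5.77 and 7.27 in WT UNT, 6.48 and 7.75 in WT RNH1, 15.6 and 17.1 in MT UNT, and 16.2 and 15.7 in MT RNH1. On GL000224.1 the region 3497-4309 ran the other way, with 16.5 and 15.5 in WT UNT, 18.9 and 20.2 in WT RNH1, 6.65 and 9.53 in MT UNT, and 14.1 and 10.4 in MT RNH1. Neither pair of genotypes overlapped in untreated DNA, and these regions were picked after their values were seen. KI270448.1:6390-7334, whose sequence is printed last above, had 12.4 and 14.6 in MT UNT and 18.7 and 19.6 in MT RNH1, and no WT list held a peak.

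Of the 5 contigs with the highest fold enrichments, GL000224.1 was also among the 12 with the most peaks, and the other 4 had few. KI270741.1 had 1 peak in each list, at 124773-127653 next to an assembly gap, with 10.3 and 12.4 in WT UNT, 22.1 and 21.1 in WT RNH1, 24.5 and 22.1 in MT UNT and 23.4 and 21.9 in MT RNH1, and 86.5% of its 50-base words occurred elsewhere in the genome. KI270732.1:21183-21983 had no peak in WT UNT, 10.7 and 12.7 in WT RNH1, 10.2 and 9.53 in MT UNT and 24.6 and 20.5 in MT RNH1. KI270734.1 reached 24.7 in a contig with at most 1 peak per list. KI270466.1, a contig of 1233 bases of the 42-base repeat, reached 20.9 in 1 library alone, WT RNH1 replicate 1. On KI270467.1, with the same repeat, the region 1173-3577 had 9.94 in WT UNT replicate 2, 17.3 in WT RNH1 replicate 1 and 5.99 in WT RNH1 replicate 2, and no MT list held a contig peak of this class, which counted only 4 contig peaks on 16.6 kb. On chromosomes sequence with a 42-base period had peaks in every MT list, 24 and 21 in MT UNT and 19 and 13 in MT RNH1. Their median GC was 46.8% and 47.1% in MT UNT and 42.8% and 40.3% in MT RNH1. Contig peaks of this class had a median GC of 21.5%. The class is set by period alone, so these chromosome peaks are not shown to be the same AT-rich repeat.

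The beta satellite-like class lay mostly on GL000225.1, from chromosome 14, where this repeat made up 50.7% of the sequence. The contig had 5 and 6 peaks in WT UNT, 7 and 8 after RNH1, 4 and 2 in MT UNT and 5 and 5 after RNH1, so WT exceeded MT in both treatments, against the direction of most contigs. The region 67268-68108, from which its printed sequence comes, had fold enrichments from 7.31 to 10.6 over the 8 lists, and the genotypes overlapped. Over the class, counts were 4 and 7 in WT UNT, 8 and 8 after RNH1, 6 and 2 in MT UNT and 4 and 4 after RNH1. The same class on chromosomes went the other way, with 2 and 6 peaks in WT UNT, 8 and 18 in WT RNH1, 19 and 10 in MT UNT, and 25 and 27 in MT RNH1.

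Ribosomal DNA was found mainly on GL000220.1 and KI270733.1, by their shared sequence with the rDNA unit of chromosome 21. Peaks classed as rDNA lay on 3 contigs in all. By the RefSeq coordinates on GRCh38, with the contig settled by sequence, the gene RNA45SN5 lay at GL000220.1:105424-118780 and RNA45SN4 at KI270733.1:122273-135645. No peak of any list overlapped either 45S gene, including its 18S, 5.8S and 28S parts. Of the 11 contig rDNA regions 9 lay on GL000220.1 and KI270733.1, all downstream of the gene, on the side of the intergenic spacer. On GL000220.1 the region 23.8 to 24.4 kb past the gene end was in all 8 lists. On KI270733.1 those 8.98 to 10.4 kb and 13.3 to 15.1 kb past it were as well, and the one at 11.1 to 12.01 kb was in all 4 RNH1-treated lists and no untreated list.

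The spacer region at GL000220.1:142590-143203 had fold enrichments of 13.02 and 12.5 in WT UNT, 16.4 and 15.3 in WT RNH1, 14.2 and 11.03 in MT UNT and 15.04 and 12.8 in MT RNH1. The genotypes overlapped in untreated DNA, and after RNH1 both MT values lay below both WT values. Of its 50-base words 94.0% occurred elsewhere in the genome. On KI270733.1 the region 138414-139202 had 10.02 and 12.02 in WT UNT, 15.5 and 12.1 in WT RNH1, 10.6 in MT RNH1 replicate 1, and no peak in the 3 other MT lists.

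Contig rDNA peaks numbered 5 and 5 in WT UNT, 10 and 9 after RNH1, 4 and 5 in MT UNT and 9 and 6 after RNH1, so each RNH1-treated library held more. Chromosomal rDNA peaks numbered 1 and 1 in WT UNT, 4 and 6 after RNH1, 1 and 1 in MT UNT and 5 and 4 after RNH1. Of the 19 untreated contig rDNA peaks 0 were bona fide. A count of 0 allows a share of up to 15.8% (3 counts of 19), for counting error only and for independent peaks, whereas these peaks lay in 6 regions seen again across libraries. The fragments entering the precipitation were cut with 5 restriction enzymes, and the density of their sites differed between classes: 0.522 per kb in contig rDNA, 0.580 in pentamer satellite, 0.542 in beta satellite-like repeat, 1.99 outside the repeat classes, 2.40 in the 48-base repeat and 2.73 in alpha satellite. Its part in the peak densities was not tested.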

How the data were processed

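Groups followed the genotype and treatment that the labels give each DRIP-seq library of Nalm-6. According to Methods, the authors used BWA-MEM against GRCh38, filtered out mitochondrial reads, marked and removed duplicates with Picard, and ran MACS2 on each library. Methods name a paired-end setting and a q of 0.05, while the deposited lists hold q-values of up to 0.00999885. The deposited fold enrichment is a ratio of summit to local background, and the authors' peak caller also gave −log10 p and −log10 q values and a whole-number score. No input library entered the lists, and they hold no reads, so fold enrichment and −log10 p were solved for the genome and local backgrounds.

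Contig sequence was classed in windows of 1000 bases: pentamer satellite held at least 10% GGAAT or ATTCC, periodic classes at least 40% identity at the alpha satellite unit or at 48, 68 or 42 bases, and rDNA at least 50% of 25-base words of the chromosome 21 unit. An RNH1-treated peak covering 1 shared base ended a bona fide call. Tests were two-sided exact permutations over libraries. Named contigs were the 12 with most peaks, up to 8 with rDNA or at least 50% satellite, the 5 with the highest fold enrichment, up to 6 with at least 10 untreated peaks and a 3-fold genotype difference, and up to 6 with at least 10 RNH1-treated peaks and as many or more of them than untreated in at least 3 of 4 pairs. Where more met a rule, those with rDNA and then those with the most peaks were taken. The members, classes and lists were chosen with earlier results of these data known. Untreated and RNH1-treated libraries were paired because Methods split each DNA. WT and MT replicate numbers were not paired, since nothing states that they share a culture or day. Replicate differences over the 70 contigs correlated at 0.166 (untreated) and 0.079 (RNH1-treated). Between untreated and RNH1-treated libraries the correlations were 0.235 in WT and 0.060 in MT, so that this pairing rests on Methods and not on the correlation. Python 3.11.15, numpy 2.4.6, pandas 2.3.3, pysam 0.24.0 and samtools 1.23.1 were used, and the steps were tested on simulated data. RNA-Seq of HEK293T cells was not used, and genes other than those of ribosomal RNA were not placed on the contigs here. One ribosomal spacer region and its sequence are not reported here.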

Additional observations from a re-analysis of the deposited data

How the results depend on the processing

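Over 25 results, 268 alternatives were computed, and 13 turned direction and 12 moved a count of regions by over 1.5 times. The other 243 kept direction or, for counts of regions, stayed within 1.5 times, but ratios among them changed in size. No test could reach p under 0.05 here, so a p says nothing about stability. Keeping the same number of peaks in every list turned the MT to WT log2 ratio of contig peak counts to -0.023 (untreated) and -0.27 (RNH1), that of pentamer peaks to -0.065 and -0.31, the bona fide difference to 4.11 points and the untreated to RNH1 ratio outside the repeat classes to -0.30, the MT to WT log2 ratios outside the repeat classes were 0.26 and 0.45 in place of 1.496 and 1.95, and MT-only regions became 15.8% and 9.83% of those tested and WT-only regions with RNH1 9.25%. A fold enrichment of at least 4 turned the contig to chromosome difference in median fold enrichment to 0.13 and left 29.4% and 23.1% of regions MT-only, 60 and 59 in number. Without KI270442.1 the untreated share ratio was 0.0056. Leaving out 1 library or preparation at a time gave -0.11 to 0.033 for the untreated share ratio, -10.9 to 0.46 points for the bona fide difference, -0.054 to 0.0048 for the median fold enrichment, -0.040 to 0.34 for the ratio outside the repeat classes, 33.0% to 54.5% and 32.1% to 48.3% for MT-only regions and 6.12% to 8.99% and 1.81% to 9.35% for WT-only regions, untreated and RNH1-treated. For MT-only and WT-only regions, leaving out 1 library loosens the rule, so that these shares could only stay or rise. Leaving out alternate contigs changed nothing, since none held a peak. Excluding peaks of mostly repeated sequence and a stricter pentamer class, both chosen after seeing the data, changed no direction. With the replicate block the MT to WT log2 ratio of untreated counts was 1.07 (exact permutation p = 0.5, the smallest of that pairing), and without the block for UNT against RNH1 the log2 ratio was -0.30 (exact permutation p = 0.0556), and no other direction changed with the pairing. The cause of these shifts was not tested. The lists hold no reads, so a missing peak is not shown to be absent signal.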
